A study of Homo sapiens with 22 samples.

Results

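The places bound by the AP-1 subunit JUN were compared between PC3 and NCI-H660 cells. PC3 is an androgen receptor-negative prostate cancer line derived from a bone metastasis, whereas NCI-H660 cells represent neuroendocrine prostate cancer. In both lines JUN was profiled by ChIP-seq, which sequences the DNA recovered with an antibody, after transfection with a negative control siRNA (siNC). The lines carried no other treatment in this comparison, and they were grown in different media, with β-estradiol and hydrocortisone added for NCI-H660 alone. Accessible chromatin came from ATAC-seq, which sequences DNA that a transposase can reach, in vehicle-treated cells of each line. The members were all 42291 enriched regions of both JUN lists, of 871377 regions in the 22 lists of the series. A region was called shared if it overlapped a region of the other line by at least 1 bp and line-only otherwise. With 1 list per line there was no replicate check and no test. The intervals given are Wilson 95% intervals, which cover counting error alone.

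JUN binds DNA as a dimer. With FOS-family partners it recognises the 7-base AP-1 site TGACTCA, and with partners of the ATF and CREB family it prefers an 8-base site in which one more base stands between the same outer letters, the cyclic AMP response element TGACGTCA being the best known form. In epithelial cells AP-1 is known mainly as a factor of distal enhancers. The JUN gene itself is a textbook target of JUN-ATF dimers through an 8-base site in its promoter.

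The sequences that follow, read from the reference genome on the hg19 build, show both kinds of site inside the regions that the results turn on. Capitals mark the 7-base site TGACTCA or an 8-base site TGACNTCA, in which N is any base, on either strand. Only windows that overlap no annotated exon were taken. The first set holds the highest-scoring PC3-only distal regions and the highest-scoring shared region with a 7-base site.
KCNMA1 intron, PC3-only, chr10:78923876-78923962, plus strand: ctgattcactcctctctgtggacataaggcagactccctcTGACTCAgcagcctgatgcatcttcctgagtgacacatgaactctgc
PTHLH intergenic, PC3-only, chr12:28176589-28176675, minus strand: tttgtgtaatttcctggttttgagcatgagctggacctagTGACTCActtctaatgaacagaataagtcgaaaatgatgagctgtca
NRP1 intergenic, shared, chr10:33423136-33423222, plus strand: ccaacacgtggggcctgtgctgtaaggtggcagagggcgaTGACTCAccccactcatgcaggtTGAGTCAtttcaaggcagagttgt

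The second set shows 8-base sites of regions bound in NCI-H660. The JUN and CHGA promoters were picked for the genes they serve, after their values had been seen, and the others had the highest scores for their class and kind of site.
JUN promoter, shared, chr1:59249739-59249826, minus strand: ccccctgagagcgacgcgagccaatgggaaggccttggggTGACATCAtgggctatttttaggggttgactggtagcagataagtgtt
JUND promoter, shared, chr19:18392585-18392672, plus strand: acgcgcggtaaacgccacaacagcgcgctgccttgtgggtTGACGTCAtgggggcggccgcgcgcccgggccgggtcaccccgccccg
CHGA promoter, NCI-H660-only, chr14:93389401-93389488, plus strand: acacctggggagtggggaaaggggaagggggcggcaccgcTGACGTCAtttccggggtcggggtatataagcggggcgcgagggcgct
DUSP8 promoter, NCI-H660-only, chr11:1593572-1593659, plus strand: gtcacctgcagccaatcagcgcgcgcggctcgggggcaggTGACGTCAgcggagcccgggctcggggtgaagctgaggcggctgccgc
ZBTB7C intron, NCI-H660-only, chr18:45743517-45743604, plus strand: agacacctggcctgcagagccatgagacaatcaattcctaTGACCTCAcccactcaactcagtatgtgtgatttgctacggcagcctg
ERGIC1 gene body, NCI-H660-only, chr5:172332065-172332152, minus strand: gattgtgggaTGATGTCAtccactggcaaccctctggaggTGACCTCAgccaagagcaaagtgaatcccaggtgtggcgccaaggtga

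Of the 23890 PC3 regions, 3052 (12.8%, 95% interval 12.4 to 13.2) were shared, which left 20838 PC3-only regions. Of the 18401 NCI-H660 regions, 3027 (16.5%, 15.9 to 17) were shared and 15374 were NCI-H660-only. The gap between these shares goes with the lengths of the lists, and with the top 10000 regions of each list 13.4% and 13.3% were shared. In the 3066 overlapping pairs the centres lay a median of 47 bp apart, and 72.1% of them lay within 100 bp. The deposited scores, which rise with the peak caller's confidence, had a Spearman correlation of 0.45 over these pairs and of 0.37 once places found in nearly every list were left out. Such places, overlapped in at least 17 of the 22 lists, held 383 of the shared PC3 regions (12.5%) but 3 of the PC3-only regions, and without them 11.3% of PC3 and 14.7% of NCI-H660 regions were shared. They held the 7-base site in 2.85% of the PC3 regions in them, well under the share in the other regions.

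Promoters, defined as 1 kb either side of a protein-coding transcript start, took up very different shares of the classes. Of the PC3-only regions 5.75% (5.44 to 6.07) lay at a promoter, against 21.4% (20.8 to 22.1) of the NCI-H660-only regions and 26.7% (25.2 to 28.3) of the shared regions of PC3. The accessible regions of the lines differed much less, with 10.3% of the PC3 and 16.5% of the NCI-H660 ATAC regions at promoters. JUN regions in PC3 thus held a lower promoter share than the accessible chromatin of that line, and those in NCI-H660 a higher one. PC3-only regions lay a median of 45.1 kb from the nearest start and NCI-H660-only regions 30.1 kb. Introns and intergenic DNA held 40.1% and 49.2% of the PC3-only regions, and 32.4% and 41.4% of the NCI-H660-only regions. CpG-rich sequence, with an observed to expected CpG ratio of at least 0.6, made up 5.02% of PC3-only and 21.3% of NCI-H660-only regions. Seen from PC3, a promoter region was shared in 40.5% and a distal region in 10.2% of cases, whereas in NCI-H660 these shares were 20% and 15.4%.

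Most line-only regions were accessible in the line in which JUN was bound. Of the PC3-only regions 96.3% overlapped an ATAC region of PC3 and 15.5% one of NCI-H660. For NCI-H660-only regions the own-line share was 85.5% and the share in PC3 41.7%. The latter split by place, and 85.7% of the NCI-H660-only promoter regions were accessible in PC3 against 29.8% of the distal ones. These shares were near those of all NCI-H660 ATAC regions, of which 83.5% at promoters and 32.9% at distal places were accessible in PC3. In the other direction, NCI-H660 chromatin was accessible at 56.6% of PC3-only promoter regions and at 13% of PC3-only distal regions, against 73.5% and 15.6% of all PC3 ATAC regions. The PC3-only promoter regions thus had the lower cross-line share. The PC3 ATAC list was the longer one, so these cross-line shares also move with list length. With equal numbers of top ATAC regions the gap between own-line and other-line access was 77.4 percentage points for PC3-only and 53.5 for NCI-H660-only regions, against 80.8 and 43.8 with the whole lists.

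**Figure D1:**
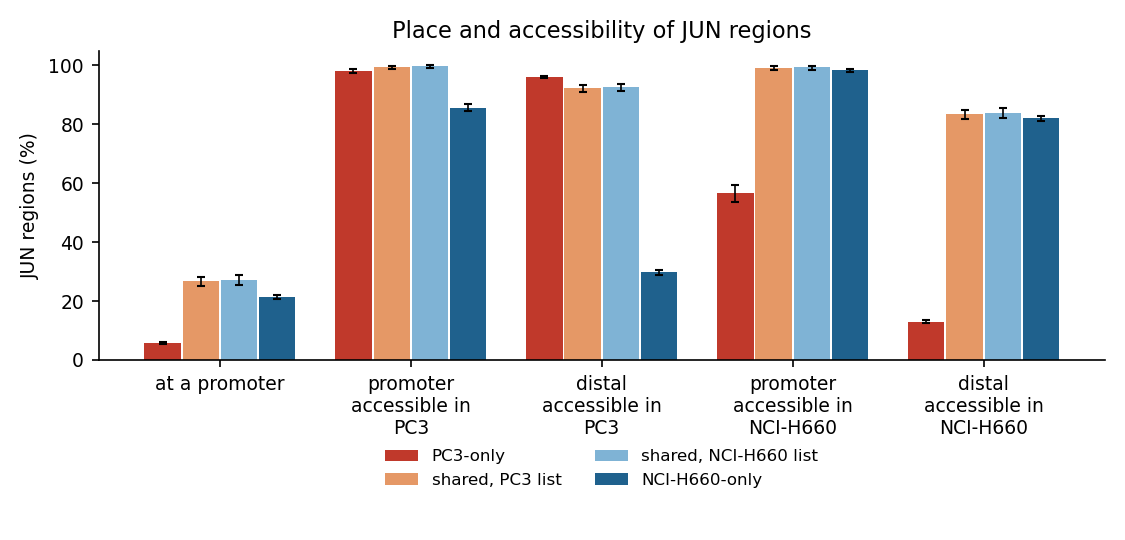
Share of JUN regions in each class (y axis, percent) that lay at a promoter, and of promoter and of distal regions that were accessible in PC3 or in NCI-H660 (x axis); error bars are Wilson 95% intervals. Open chromatin of NCI-H660 was found at 13% of distal PC3-only regions, and open chromatin of PC3 at 85.7% of NCI-H660-only promoter regions, near the 15.6% and 83.5% of all accessible regions of the same place.

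Most shared regions lay in chromatin accessible in both lines, 86.8% of them by the PC3 list and 87.3% by the NCI-H660 list. PC3 JUN regions that were accessible in both lines were shared in 45.3% (44 to 46.6) of 5845 cases, and those accessible in PC3 alone in 1.32% of 17094. For NCI-H660 the shares were 30.4% (29.4 to 31.4) of 8691 regions and 0.365% of 7127. Regions accessible in neither line were shared in 16.6% of 897 cases in PC3 and in 6.97% of 1995 in NCI-H660. Many places open to both lines were nonetheless bound in one. Of the 45376 PC3 ATAC regions accessible in both lines, 13.4% held a JUN region of PC3, 19.5% one of NCI-H660 and 6.12% one of each. At promoters accessible in both lines JUN of NCI-H660 was present in 22.9% and JUN of PC3 in 9.69%, and at distal places in 17.7% and 15.4%.

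The relation between score and sharing differed between the lists. In NCI-H660 the shared share rose with each score decile, from 3.64% among the lowest-scoring regions to 42.8% among the highest. In PC3 it was 14.9% in the lowest decile, 9.5% in decile 5 and 22.1% in the highest. Places found in nearly every list made up 7.37% of the highest decile in PC3 and 10.5% in NCI-H660. In the lowest decile they made up 0.419% and 0%, and the deciles were not recomputed without them. Promoters fell from 19.3% to 5.99% of the PC3 regions from the lowest to the highest decile. The median score was 150 in PC3 and 78 in NCI-H660. Scores depend on depth, which is unknown, so equal scores need not mean equal binding in both lists.

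**Figure D2:**
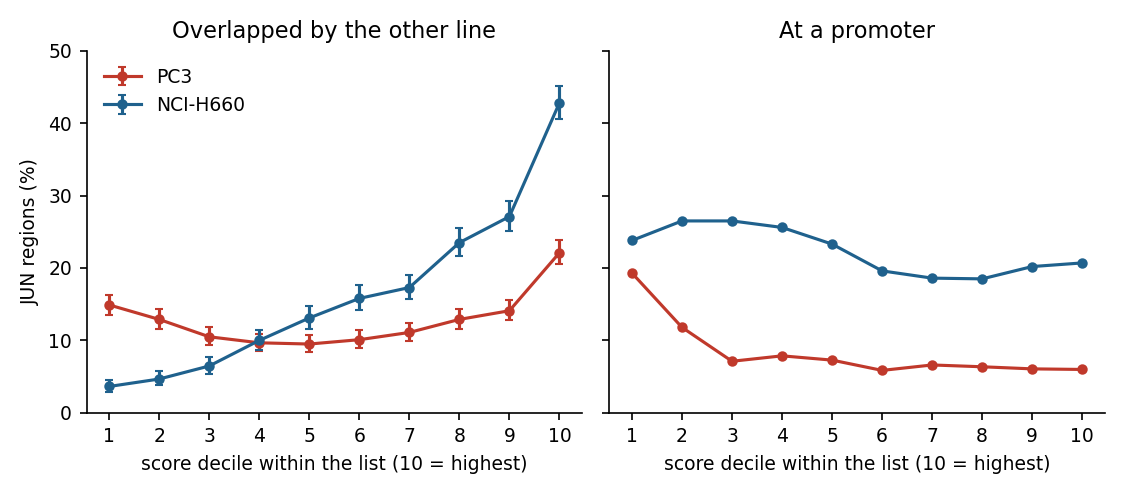
Share of JUN regions overlapped by the other line (left, Wilson 95% intervals) and at a promoter (right) in each score decile of the PC3 and NCI-H660 lists (x axis, 10 is the highest). Sharing rose from 3.64% to 42.8% in NCI-H660, while the PC3 curve dipped to 9.5% and ended at 22.1%. Places found in nearly every list are included.

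The sites under the regions differed in their spacing. The 7-base site TGACTCA stood within 100 bp of the centre of 51.6% (50.9 to 52.2) of PC3-only regions, 35.0% of shared regions in the PC3 list, 30.1% of shared regions in the NCI-H660 list and 10.6% (10.1 to 11.1) of NCI-H660-only regions. All accessible regions of PC3 held it in 16.8% and those of NCI-H660 in 5.35%. The 8-base sites TGACNTCA, grouped after the commonest words of the regions had been seen, went the other way. They stood in 6.0% (5.68 to 6.33) of PC3-only and in 13.9% (13.4 to 14.5) of NCI-H660-only regions, against 4.86% and 4.13% of accessible regions. In NCI-H660 as a whole 2340 regions held the 7-base site alone and 2325 an 8-base site alone, and in PC3 11111 and 893. Neither site was found in 45.4% of PC3-only and 76.3% of NCI-H660-only regions.

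Promoter and distal regions differed in the forms they held. NCI-H660-only promoter regions held the 7-base site in 3.77% of cases and an 8-base site in 15.0%, where all accessible promoters of that line held them in 2.06% and 2.54%. The form TGACGTCA alone was present in 8.45% of them, against 0.947% of the accessible promoters of NCI-H660 and 0.668% of the PC3-only promoter regions. PC3-only promoter regions carried the 7-base site in 42.4% of cases, like the distal ones with 52.1%. At distal NCI-H660-only regions the 7-base and 8-base shares were 12.4% and 13.6%, over 6.0% and 4.44% in distal accessible regions. The forms TGACCTCA (5.88%) and TGACATCA (4.77%) outnumbered TGACGTCA (1.30%) there. All distal accessible regions of NCI-H660 held these forms in the same order, at 1.81%, 1.28% and 0.156%. In PC3-only distal regions an 8-base site was about as common as in accessible distal regions of PC3, at 6.06% and 5.05%.

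Several of these shares, though not all, varied with score. Among NCI-H660-only promoter regions an 8-base site was held by 2.53% of the 1461 regions that scored under 50, 27.8% of the 492 between 100 and 200, and 62.0% (54.7 to 68.8) of the 179 that scored 400 or more. The 7-base share of the same regions rose less, from 1.98% (1.39 to 2.84) in the lowest score group to 8.38% (5.14 to 13.4) in the highest. Among NCI-H660-only distal regions scoring 400 or more, 39.3% held an 8-base and 32.9% a 7-base site. PC3-only promoter regions of that score held the 7-base site in 75.2% and an 8-base site in 2.75% of 109 cases, and their 8-base share showed no trend over the score groups, lying between 2.75% and 7.49%. Shared promoter regions split by the list that ranked them, and at 400 or more the 8-base share was 47.4% by the NCI-H660 score and 5.48% by the PC3 score, with 27.8% and 75.3% for the 7-base site.

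**Figure D3:**
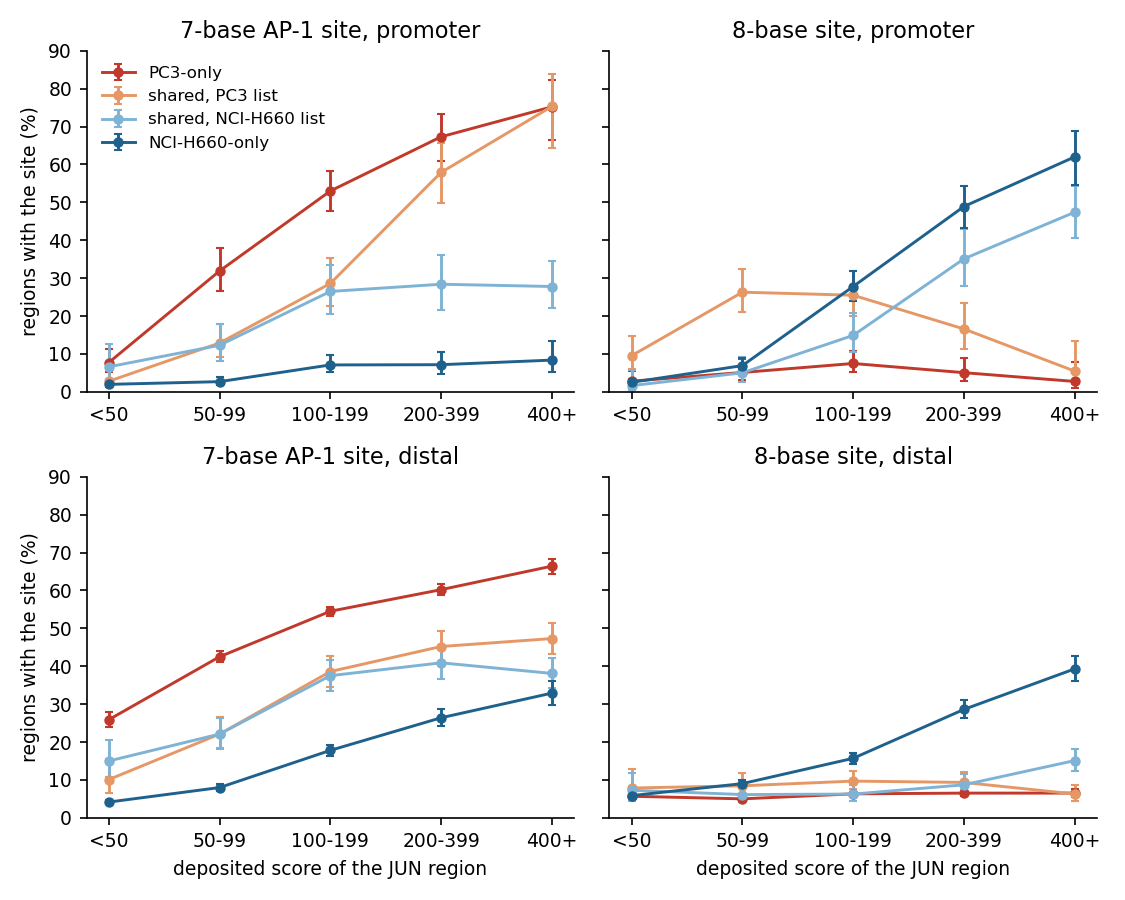
Share of JUN regions (y axis, percent, Wilson 95% intervals) that held the 7-base AP-1 site (left) or an 8-base site (right) within 100 bp of the centre, by deposited score (x axis), for promoter (top) and distal (bottom) regions of the 4 classes. NCI-H660-only promoter regions reached 62.0% for the 8-base site and 8.38% for the 7-base site in the highest score group, and PC3-only ones 2.75% and 75.2%.

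The distance of sites from the region centre, read within 100 bp, was compared with that in accessible regions. In PC3-only regions that held one, the nearest 7-base site was a median of 25 bp from the centre, and the rarer 8-base site 44 bp, against 36 bp and 49 bp in all PC3 ATAC regions. In NCI-H660-only regions the medians were 38 bp for the 7-base and 35 bp for the 8-base site, against 48 bp and 50 bp in all NCI-H660 ATAC regions. Sharing differed by the site held. NCI-H660 regions with a 7-base site alone were shared in 35.9% (34.0 to 37.9) of cases and those with an 8-base site alone in 13.5% (12.2 to 15.0). Those with neither were shared in 13.3%. The like values for 8-base and neither hid opposite differences by place. At promoters 25.4% with an 8-base site alone and 15.3% with neither were shared, and at distal places 8.86% and 12.7%. These shares include places found in nearly every list, which held 12.2% of the shared NCI-H660 regions. Whether the distal difference holds without such places was not tested. In PC3 as a whole 8.89% with a 7-base site alone, 29.5% with an 8-base site alone and 15.4% with neither were shared. Of the 167 PC3 promoter regions with an 8-base site alone, 80.2% were shared.

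**Figure D4:**
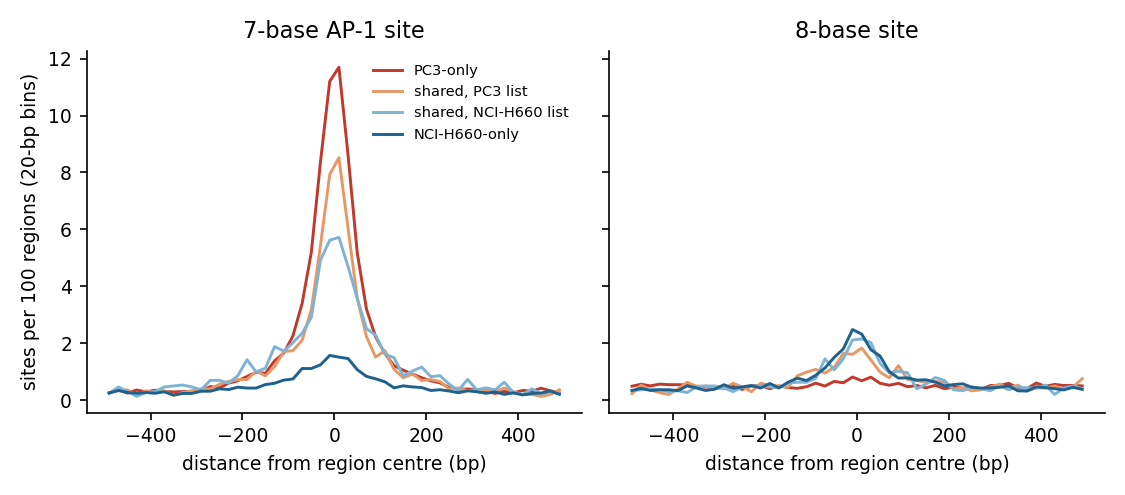
Number of sites per 100 regions (y axis) in 20-bp bins of distance from the region centre (x axis, bp) for the 7-base AP-1 site (left) and the 8-base sites (right). The 7-base peak is highest in PC3-only regions, with a median distance of 25 bp for the nearest site, and the 8-base peak is highest in NCI-H660-only regions, with a median of 35 bp.

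The other lists of the series placed the classes further. FOXA2, a pioneer factor of the forkhead family, overlapped 45.5% of PC3-only distal regions in PC3 (11% of all distal accessible regions there) and 24.7% of NCI-H660-only distal regions in NCI-H660 (12.1%). At line-only promoters it overlapped 20.5% in PC3 (4.17% of accessible promoters) and 5.74% in NCI-H660 (3.87%). A pair of longer FOXA2 lists of vehicle-treated PC3, whose antibody the labels do not name, met 71.0% and 65.6% of PC3-only distal regions (24.8% and 21.7% of distal accessible regions) and 42.7% and 37.7% of PC3-only promoter regions (15.9% and 13%). FOSL1, a FOS-family partner of JUN, was profiled in PC3 alone, where its siNC list met 34.5% of shared, 7.18% of PC3-only and 1.31% of NCI-H660-only regions. The shared class includes the places found in nearly every list, which made up 12.5% of it by the PC3 list. The FOSL1 list met 1.66% of accessible promoters and 1.46% of distal accessible regions of PC3. H3K27ac of PC3, a mark of active promoters and enhancers, covered 76.1% of PC3-only regions, and 81.9% of NCI-H660-only promoter but 15.4% of NCI-H660-only distal regions, near the 76.6% and 17% of all NCI-H660 ATAC regions of those places. A second JUN list of NCI-H660, taken after FOXA2 silencing, held 66.6% of NCI-H660-only promoter regions and 40.4% of the distal ones, over 40% and 13.9% of all accessible regions of NCI-H660. It held the NCI-H660-only regions with an 8-base site alone in 54.6%, with a 7-base site alone in 46.6% and with neither in 44.4% of cases.

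Inside each class, regions with different sites also differed in place and in overlap with other lists. Of NCI-H660-only regions, 24.3% of those with an 8-base site alone and 7.87% of those with a 7-base site alone lay at a promoter. FOXA2 of NCI-H660 overlapped 14.1% of the former, 20.6% of the latter and 21.9% of the regions with neither site. In PC3-only regions FOXA2 of PC3 met 36.6% of those with a 7-base site alone and 53.0% of those with neither exact sequence. Related sequences such as TGAATCA, found in 19.6% of PC3-only distal regions and 7.77% of distal accessible regions of PC3, were not counted as sites. FOSL1 went the other way in PC3-only regions, at 9.16% with a 7-base site alone and 5.18% with neither. In shared regions of the PC3 list, however, FOSL1 met 23.5% of those with a 7-base site alone and 43.9% of those with neither. Places found in nearly every list, 12.5% of these shared regions and mostly without a 7-base site, were not left out. Whether the FOSL1 difference in shared regions holds without them was not tested. The balance of sites varied among the other lists, which differ in length and were not matched by score. Site shares moved with score, and the 7-base share of NCI-H660-only regions was 3.61% at scores under 50 and 28.7% at 400 or more. JUN regions of PC3 after FOXA2 silencing held the 7-base site in 42.1% and an 8-base site in 7.06% of 4081 cases. JUN regions of NCI-H660 after FOXA2 silencing held them in 4.98% and 10.6% of 59452 cases, where the siNC list as a whole held them in 13.8% and 13.7%. FOSL1 regions of PC3 held them in 35.0% and 5.85% under siNC but in 2.41% and 4.16% of the 1538 regions listed after FOXA2 silencing. In LNCaP, an androgen-responsive line, the siNC JUN list of 2421 regions held both kinds often, at 25.4% and 21.7%.

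JUN lay at the promoter in both lines at 4 of the 10 AP-1 subunits and 2 of the 10 early response genes, and in neither line at 4 and 7 of them. Such joint counts were not made over all genes. Line by line, it lay at 5 AP-1 subunit promoters in each line, and at 3 early response promoters in PC3 and 2 in NCI-H660. Over all 19440 protein-coding genes it lay at 2093 promoters in PC3 and 4412 in NCI-H660. The scores named here are the highest at each promoter. The JUN promoter scored 5419 in NCI-H660 and 300 in PC3, over an 8-base site in both. JUND, a further JUN-family subunit, scored 3299 and 262, also over an 8-base site. DUSP1, a phosphatase of MAP kinases, scored 1161 and 115 over an 8-base site, and KLF6, a zinc finger factor, scored 1602 and 109 over an 8-base site. ATF3, a further AP-1 subunit, scored 2011 and 321 with neither kind of site. These 5 promoter regions were shared, with a higher score in the NCI-H660 list. Over all 3066 overlapping pairs the NCI-H660 score was the higher one in 1641. At FOSL2, another FOS-family partner, the scores were 688 and 458, over a 7-base site. The promoter of FOSL1 had 2 regions in PC3, the higher scoring 546 over a 7-base site, and none in NCI-H660, and that of FOSB one region in NCI-H660 alone, scoring 217.

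Other listed promoters were bound in one line. In PC3 alone JUN lay at the promoters of YAP1, the Hippo pathway co-activator (318), AXL, a receptor tyrosine kinase (533), PLAU, the urokinase plasminogen activator (1323), CD44, a hyaluronan receptor (158), CCN2 (175) and ANKRD1 (293), the last pair known YAP targets. The regions at YAP1 and AXL held a 7-base site, and that at PLAU an 8-base site. In NCI-H660 alone it lay at the promoters of CHGA (124) and CHGB (141), granins of neuroendocrine secretory vesicles, both with an 8-base site. TEAD1, the DNA-binding partner of YAP (1208), and AMOTL2, a Hippo pathway gene (901), were also bound at the promoter in NCI-H660 alone, with an 8-base site. NCAM1, a neural adhesion molecule (269), held a 7-base site there. VIM, which encodes vimentin, had a promoter region in each line that did not overlap, scoring 658 over a 7-base site in PC3 and 66 without one in NCI-H660. NRP1, a semaphorin and VEGF co-receptor, had its shared promoter region at 5497 in PC3 and 410 in NCI-H660.

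Within 50 kb of a transcript start, 17.6% of the 19440 protein-coding genes had a PC3 region and none of NCI-H660, 21.6% the reverse, and 38.2% had both. Of 15 basal, mesenchymal and stem-like genes, 9 had both and 4 had a PC3 region alone, namely KRT14, CD44, SNAI2 and CAV1, with none for NCI-H660 alone. The median gene of this list had 3 PC3 regions and 1 NCI-H660 region, against 1 and 1 over all genes. NRP1 had 21 and 5, PLAU 9 and 1, and ITGB4, an integrin of hemidesmosomes, 8 and 2. Of 8 YAP and TEAD genes, 5 had both and CCN1, ANKRD1 and YAP1 a PC3 region alone. Of 15 neuroendocrine transcription factors, 7 had an NCI-H660 region alone, 3 a PC3 region alone and 3 both. ST18, a zinc finger factor of neural and endocrine cells, had 6 NCI-H660 regions and none of PC3, while SOX2 and PROX1 had 3 each and none of PC3. FOXA2 went the other way, with 2 PC3 regions, at least 1 of them at the promoter, and none of NCI-H660. Of 12 neuroendocrine secretory and surface genes, 4 had an NCI-H660 region alone (CHGA, SCG3, NCAM1 and CEACAM5), 0 a PC3 region alone and 6 both, and JUN lay at 6 of their promoters in NCI-H660 and at 0 in PC3. Over all genes it lay at 4412 promoters in NCI-H660 and 2093 in PC3, and at 6 and 6 of the basal, mesenchymal and stem-like list. The 10 AP-1 subunits had both in 6 cases, a PC3 region alone at JUNB and FOSL1 and an NCI-H660 region alone at FOS and BATF. Of 10 early response genes 7 had both, and of 10 luminal and androgen receptor target genes 1 had both, 4 a PC3 region alone and 2 an NCI-H660 region alone (FKBP5 and ACP3). Of the 11 genes that the study itself had picked for testing, 5 had both, 4 a PC3 region alone and 1 an NCI-H660 region alone. The lists hold 8 to 15 genes each, and whether they differ from all genes was not tested. The neuroendocrine lists had accessible promoters at 11 of 15 transcription factors and 9 of 12 secretory and surface genes in PC3, and at 14 and 12 in NCI-H660. Accessible promoters were common in both lines, at 15096 of all 19440 protein-coding genes in PC3 and 14531 in NCI-H660. Of 7 neuroendocrine markers, 6 had an accessible promoter in PC3 and 7 in NCI-H660, and CHGA was the difference, while 7 of 7 stem-like markers were accessible in both. By JUN regions within 50 kb, 7 of the stem-like markers were marked in PC3 and 3 in NCI-H660, and 4 and 6 of the neuroendocrine ones. Of 5 luminal markers 4 had an accessible promoter in PC3 and 3 in NCI-H660, and 2 and 0 had a JUN region within 50 kb.

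By nearest gene, the PC3-only regions were spread over 7164 genes and the NCI-H660-only regions over 7197, with 3637 genes in common. At least 5 PC3-only regions and no NCI-H660 region were nearest to 245 genes (1.26% of all), and the reverse held for 0.54% of all genes. Genes with long intervals around them led both rankings, so accessible regions are given beside some counts. TRPS1, a GATA-type zinc finger factor, had 40 PC3-only and 34 NCI-H660-only regions. SOX9, a transcription factor of epithelial stem and progenitor cells, had 34 PC3-only regions and 1 NCI-H660-only region, with 181 and 25 accessible regions. HAS2, a hyaluronan synthase, had 34 and 13, MYC 33 and 22, and KCNMA1, a potassium channel gene, 31 and 7. NAALADL2 (38), ADGRL3 (36), PCDH15 (34), ANKRD30A (32) and CADM2 (30) completed the 10 leading PC3-only genes. ANKRD30A had no NCI-H660 JUN region, and 238 accessible regions in PC3 against 2 in NCI-H660. With starts limited to 100 kb, KCNMA1 led with 27 PC3-only regions and 5 NCI-H660-only regions, followed by ANK3 with 22 and 2 and FOXP1 with 21 and 6, and LTBP1, a TGF-beta binding protein gene, had 18 and none. The NCI-H660-only ranking was then led by RIMS2 with 34 and 6 PC3-only regions and EYA1, a developmental co-factor, with 26 and 3, and NRXN3 had 17 and 1. In that ranking 1 of the 10 leading PC3-only genes of the first one remained, and 4 of the 10 NCI-H660-only genes.

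All 10 genes that led the NCI-H660-only ranking lie on chromosome 8. They were CSMD3 with 88 regions, RALYL with 80, RIMS2, a presynaptic active zone gene, with 46, SNX16 with 46, EYA1 with 35, MMP16 and TRPS1 with 34 each, VPS13B with 30, BHLHE22 with 28 and TOX with 27. The chromosome held 12.5% (12 to 13) of the NCI-H660 JUN regions and 18.2% of the JUN list after FOXA2 silencing, but 5.86% of the accessible regions, 5.65% of the H3K4me2 regions and 7.97% of the FOXA2 regions of that line, and 6.52% of the PC3 JUN regions. NCI-H660 had 39.3 JUN regions per 100 accessible regions on chromosome 8 and 17.1 on the others together. Its regions there had a median score of 46 against 84 elsewhere, were accessible in 55.8% against 90.3%, and held the 7-base site in 8.35% against 14.6%. Among NCI-H660 regions scoring at least 100 the chromosome held 7.26%. What sets it apart was not tested. Leaving it out raised the NCI-H660-only promoter share to 23.1% and the accessible share to 90.7%, and the 7-base and 8-base shares to 11.2% and 14.6%. The leading genes without it, a ranking made after the values were seen, were NRXN3, a neurexin of synapses, with 24 NCI-H660-only and 7 PC3-only regions, CELF4, a neuronal RNA-binding protein gene, with 23 and 7, ZMIZ1 with 23 and 8, PPIAL4G with 22 and 5, TENM4 with 21 and 22, and TPTE with 21 and 13. AUTS2, a neurodevelopmental gene, followed with 20 and none, and NAALADL2 and PDE4D also had 20, with 38 and 11 PC3-only regions.

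**Figure D5:**
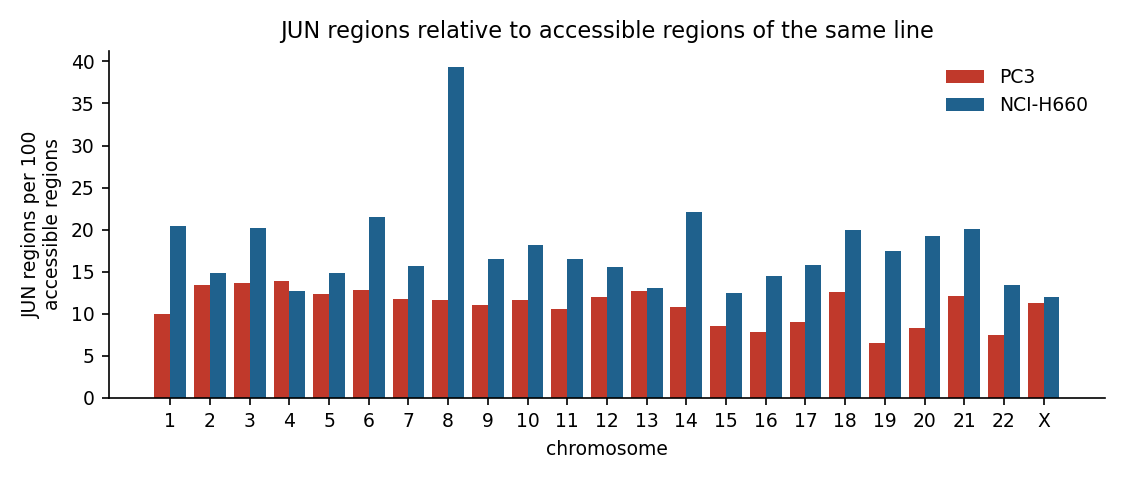
JUN regions per 100 ATAC regions of the same line (y axis) on each chromosome (x axis) for PC3 and NCI-H660. Chromosome 8 stands out in NCI-H660 with 39.3 per 100.

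The leading genes of the shared class, headed by CWH43 with 38 regions, lay mostly beside places found in nearly every list, which held 140 of the 200 shared regions of the 10 genes. MYC, with 8 shared regions, and NRP1, with 5, had none in such places.

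The regions with the highest scores, outside places found in nearly every list, are given last. The highest-scoring PC3-only region lay in an intron of KCNMA1 (score 6009), with a 7-base site, and others lay in an exon of the same gene (5364) and 51.0 kb from a start of PTHLH, the parathyroid hormone-related protein gene (3815). Each was accessible in PC3 and not in NCI-H660, and each held a 7-base site. The highest-scoring shared regions of the PC3 list were 51.4 kb from a start of NRP1 (7149, and 650 in NCI-H660), at the NRP1 promoter (5497 and 410) and in an intron of KCNMA1 (3124 and 505), with a 7-base site in each. In NCI-H660 the highest-scoring NCI-H660-only regions lay 501 kb from a start of ZMIZ1 (3169), in an intron of FOXO6 (2958) and in an intron of ZBTB7C (2784). Each was accessible in NCI-H660 and not in PC3. None of the 3 held a 7-base site, and the ZBTB7C region held the 8-base site printed above. The highest-scoring NCI-H660-only region with a 7-base site lay in an intron of ATP6V1H on chromosome 8 (2161) and was accessible in both lines.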

How the data were processed

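The data were lists of enriched regions, 1 per sample, from ChIP-seq and ATAC-seq. The authors deposited for each region its position and a score. Per the submitters' processing notes, FastQC 0.11.9, BWA 0.7.17-r1188, SAMtools 1.9 and MACS2 2.1.4 were used on the hg19 build. The deposited score was read as 10 times the −log10 q-value of the peak caller, an inference from its range, since both JUN lists began at 13. Pooling of replicates, the control library and the peak caller's settings were not given in the sources used here, and depth was unknown. Region names show that the PC3 and NCI-H660 lists came from different processing folders, so folder and line cannot be told apart.

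Overlap needed 1 bp. Promoters, gene windows and nearest genes used GENCODE 44 on GRCh37, and either strand was scanned for sites up to 100 bp from the centre of each region, in Python 3.11.15 with numpy 2.4.6, pandas 2.3.3, scipy 1.17.1 and matplotlib 3.10.9. With 1 list per line nothing was tested, and shares carry Wilson 95% intervals. Named genes were the 10 nearest to the most regions of each class plus gene lists, and named regions the 3 with the highest score and the highest with an AP-1 site, outside places found in at least 17 lists. Printed sequences are from regions outside chromosome 8. The members and lists were chosen with earlier results of these data known, and the 8-base site, the rankings without chromosome 8 or common places, and the printed sequences were chosen after seeing the data. Scripts were tested on simulated data. Alternatives varied the overlap, score minimum, promoter width, site window and gene window. Some listed genes are not reported here by name.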

Additional observations from a re-analysis of the deposited data

How the results depend on the processing

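Of 77 values recomputed under alternatives, 25 stayed within the counting interval or 1.5 times the count, 52 moved and 0 reversed in direction. Only the differences between shares could reverse, because the shared shares and the counts of genes cannot change sign. Where a value moved, the cause was not tested. No paired analysis was possible because each line had 1 list, and for the same reason no replicate could be left out. Leaving out chromosome 8 and the 8-base site were chosen after seeing the data.

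The shared share of PC3 (12.8%) and of NCI-H660 (16.5%) became 10.5% and 13.6% with at least 50% of both regions overlapping, 11.7% and 15.2% with centres within 250 bp, 11.5% and 20% with scores of at least 50, 10.1% and 21.3% with scores of at least 100, 13.7% and 13.5% with the top 5000 regions of each list, 13.4% and 13.3% with the top 10000, and 11.3% and 14.7% without places found in at least 17 lists. The NCI-H660 share was 17.4% without chromosome 8. With equal numbers of regions both shares were bound to be close, since most overlaps paired single regions. That alternative therefore cannot show whether the lines differ in sharing. The promoter share of NCI-H660-only minus PC3-only regions (15.7 points) was 14.7 with 2.5 kb and 14.5 with 250 bp either side, 17.2 with transcripts of all genes, 14.2 with scores of at least 100 and 17.2 without chromosome 8.

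The own-line minus other-line accessible share of PC3-only regions (80.8 points) was 80.1 with at least 50% covered, 77.4 with equal numbers of ATAC regions, 82.3 with scores of at least 100 and 83.3 with the top 10000. That of NCI-H660-only regions (43.8) was 49.6 with the centre inside, 52.3 with at least 50% covered, 53.5 with equal numbers, 50.8 with scores of at least 100, 47.0 with the top 10000 and 47.4 without chromosome 8. The 7-base site difference (41.0 points higher in PC3-only) was 43.3 within 250 bp, 33.2 within 50 bp, 43.0 over the whole region, 38.0 with scores of at least 100 and 43.8 with the top 10000. The 8-base difference (7.91 points higher in NCI-H660-only) was 8.96, 5.75, 10.9, 20.3 and 15.5 under these, and 8.68 without chromosome 8.

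Of the 10 leading genes, 1 PC3-only, 4 NCI-H660-only and 2 shared ones remained with starts within 100 kb, and 0, 0 and 0 per 100 kb of interval. With scores of at least 100, and without chromosome 8, 0 of the NCI-H660-only genes remained, and 6 of the shared ones did without common places. Neuroendocrine genes with a region fell from 12 to 7 for PC3 and from 20 to 13 for NCI-H660 within 10 kb.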
